A study of Mus musculus with 2 samples.

Results

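The Rab GTPases are the largest branch of the Ras superfamily of small G proteins, and they are described here in LSEC, the liver sinusoidal endothelial cells, whose perforated sheet separates blood from hepatocytes. The members are all array probes, other than control probes, whose gene name in the wild-type file is Rab followed by a number and at most a letter and a further digit. This gives 58 genes with 82 probes in 91 spots, of 31879 genes and unnamed transcripts with 39423 probes in 43020 spots. The rule reads names and no measured values, but it was set with earlier results of these data known.

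A Rab protein is a switch that labels a membrane. Escort proteins present the newly made Rab to geranylgeranyl transferase, which attaches the lipid anchor. Guanine nucleotide exchange factors (GEFs) load GTP and fix the Rab to its membrane, effectors read the GTP-bound form to move, tether or fuse vesicles, GTPase-activating proteins (GAPs) switch it off, and GDP dissociation inhibitors (GDIs) take it back into the cytosol. LSEC are known as scavenger cells, which take up proteins, immune complexes and glycosaminoglycans from blood through receptors such as the stabilins and pass the load through early and late endosomes to lysosomes while the receptors recycle.

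The study compared LSEC of 1 wild-type mouse with LSEC of 1 ob/ob mouse, each of them male and aged 8 weeks. Mice of the ob/ob genotype carry a defective leptin gene, make no working hormone and grow obese. Cells of both mice came from livers digested with collagenase, were kept in serum-containing medium overnight, and gave total RNA that was amplified from low input, labelled with Cy3 and hybridised to 1 array each. Each group is therefore a single mouse and a single array, with no replicate and no test of any difference, and precision is limited by this number.

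Of the 10 LSEC markers listed, 10 were well above background on both arrays, as were 10 of 10 general endothelial markers. Stab1 and Fcgr2b, a scavenger receptor and the inhibitory Fc receptor of LSEC, had wild-type signals of 21524 and 21549, against 24300 and 26852 for ob/ob. Most markers of macrophages, hepatocytes and stellate cells were also measured on both arrays and were higher on the ob/ob array. Their values are given beside the Rab genes below. In such bulk RNA, fewer cells of a type and less RNA per cell cannot be told apart.

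Throughout, a signal is the background-subtracted spot intensity of the scanner before scaling. A log2 difference is ob/ob minus wild-type after each array was divided by its own 75th percentile, 989 for wild-type and 1430 for ob/ob in intensity. Equal raw signals therefore correspond to a negative difference. A gene was measured where its probe was well above background, and a difference counted as higher or lower from 2-fold. For Rab genes measured on both arrays the scanner's error model gave the difference an SD of 0.20 to 0.37, which holds no spread between mice.

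In all, 49 of the 58 Rab genes were measured on both arrays. Of these, 5 were at least 2-fold higher in ob/ob cells (10.2%), against 1055 of 18134 genes over the whole array (5.82%). None of the 49 was at least 2-fold lower, against 415 genes over the array (2.29%), and 44 lay within 2-fold. Either way, 8.11% of all genes passed 2-fold. The 5 higher genes were Rab39, Rab19, Rab32, Rab15 and Rab37, and only Rab32 kept its direction under every alternative processing. The sign of the other 4 turned under normexp, a model-based background correction, with the 75th percentile. That setting put 21.1% of all genes at least 2-fold lower and 2.04% at least 2-fold higher. A further 2 genes, Rab38 and Rab44, were measured in ob/ob cells only, a pattern of 6.82% of all genes, and 2 genes, Rab26 and Rab9b, on the wild-type array only, a pattern of 0.856% of all genes. Rab17, Rab25, Rab36, Rab39b and Rab40b were well above background on neither array.

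The median difference of the 49 Rab genes was -0.17, and the members ran from -0.59 to 2.67. The order-statistic 95% interval of that median, -0.23 to -0.03, treats the members as independent and holds no spread between mice. The median of all genes measured on both arrays was -0.12, and 24 of the 49 Rab genes lay above it. After subtraction of the running median of genes of like level, the Rab median was -0.0016. The SD over the 49 members was 0.64, as it was over all genes (0.64), and 38 of 49 members lay within 0.5 of zero (77.6%) against 75.5% of all genes.

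Of the 5 higher Rab genes, Rab39, Rab19, Rab15 and Rab37 had wild-type signals of 16.2 to 35.5, near the lowest signal well above background on that array (12.3), and their sign turned under normexp with the 75th percentile. The wild-type signal of Rab32 was 792, below the array's 75th percentile of 989.

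**Figure D1:**
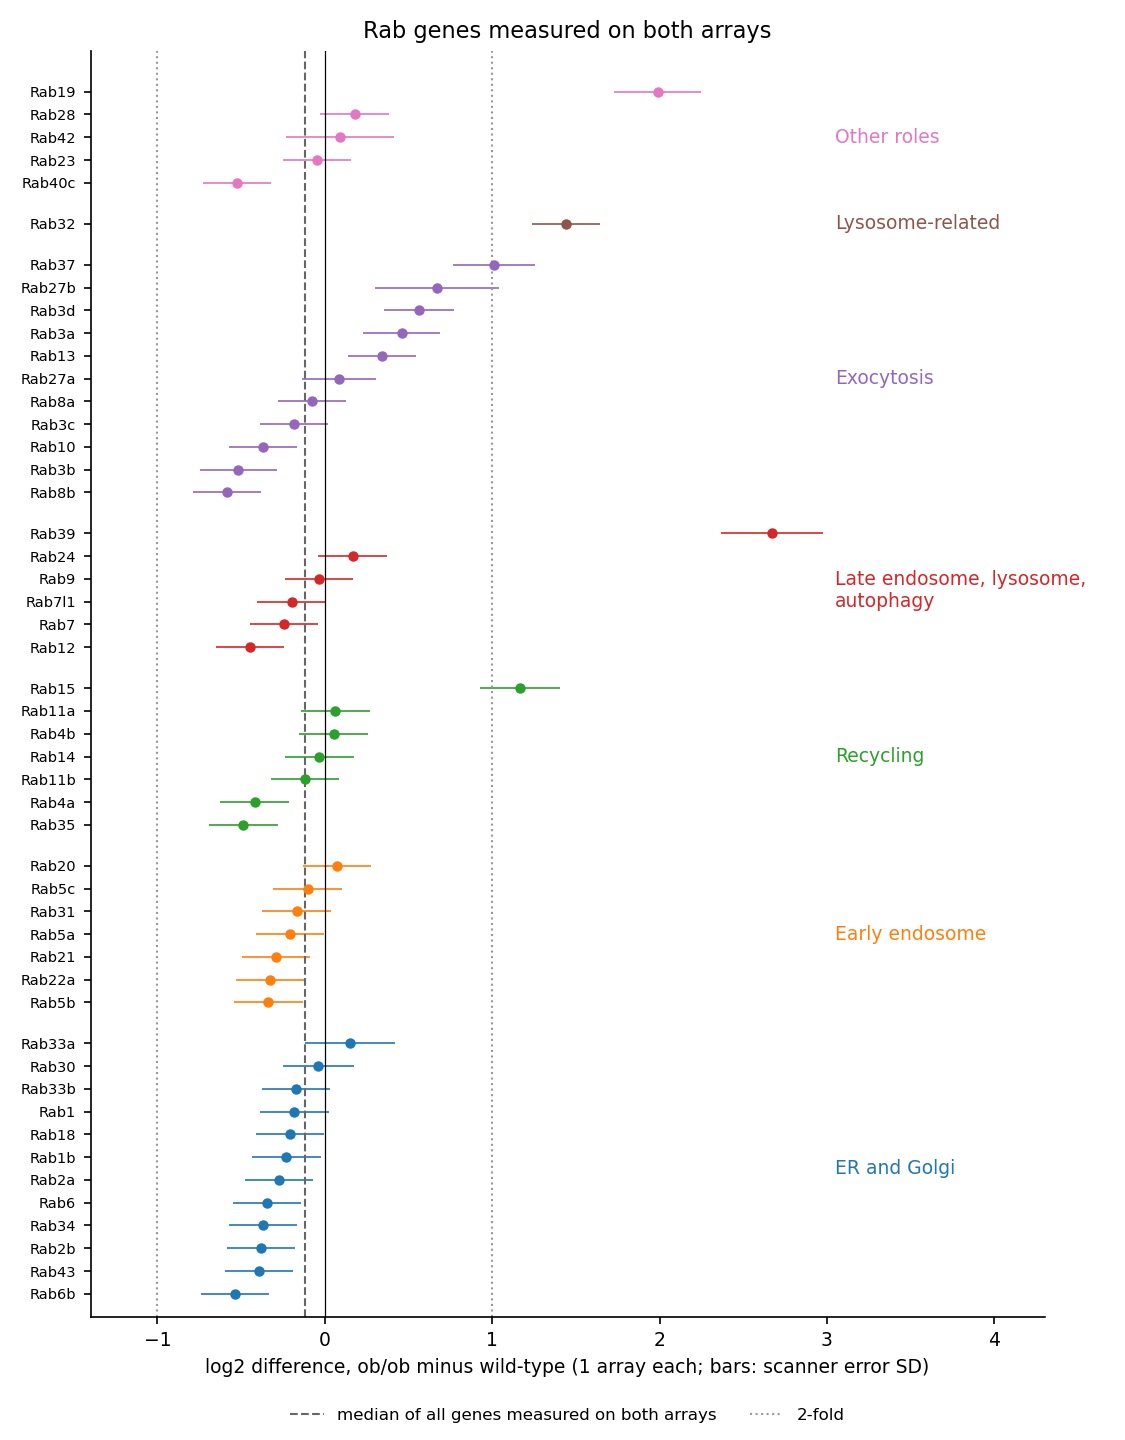
Log2 difference between ob/ob and wild-type LSEC (horizontal axis) for the 49 Rab genes measured on both arrays, grouped by role. Points are single comparisons of 1 array each, bars are the scanner's error SD, the dashed line is the median of all genes (-0.12) and dotted lines mark 2-fold. Rab39, Rab19, Rab32, Rab15 and Rab37 lie past the upper line and no gene past the lower. Of these 5 only Rab32 kept its sign under normexp with the 75th percentile, which put 21.1% of all genes at least 2-fold lower.

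The start regions of 3 higher genes and of Rab7, the central Rab of the late endosome with a difference of -0.24, are shown because they differ in base composition. The sequences are RefSeq windows of 300 bases (GRCm38.p6), from 250 bases before to 50 bases after an annotated transcript start, read 5′ to 3′ on the strand of the gene. They lie at chr10:10558158-10558457 (minus strand) for Rab32, at chr6:39381103-39381402 (plus strand) for Rab19, at chr9:53706183-53706482 (minus strand) for Rab39 and at chr6:88044968-88045267 (minus strand) for Rab7, which has a second window further upstream. Capitals mark the GC box GGGCGG and the ETS-family word GAGGAAGT, each searched on both strands, so that CCGCCC is a GC box on the other strand. No marked words overlap in these windows.
Rab32: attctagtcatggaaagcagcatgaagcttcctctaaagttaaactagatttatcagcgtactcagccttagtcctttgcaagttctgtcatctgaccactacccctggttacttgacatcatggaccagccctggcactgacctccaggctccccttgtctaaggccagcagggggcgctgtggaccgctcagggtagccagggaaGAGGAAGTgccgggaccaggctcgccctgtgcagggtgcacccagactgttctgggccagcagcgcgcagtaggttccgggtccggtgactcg
Rab19: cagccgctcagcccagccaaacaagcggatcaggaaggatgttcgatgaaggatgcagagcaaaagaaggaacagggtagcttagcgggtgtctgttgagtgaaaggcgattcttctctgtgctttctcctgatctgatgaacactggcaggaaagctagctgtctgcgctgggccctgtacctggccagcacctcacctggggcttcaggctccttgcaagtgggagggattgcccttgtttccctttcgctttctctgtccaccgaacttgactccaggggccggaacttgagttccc
Rab39: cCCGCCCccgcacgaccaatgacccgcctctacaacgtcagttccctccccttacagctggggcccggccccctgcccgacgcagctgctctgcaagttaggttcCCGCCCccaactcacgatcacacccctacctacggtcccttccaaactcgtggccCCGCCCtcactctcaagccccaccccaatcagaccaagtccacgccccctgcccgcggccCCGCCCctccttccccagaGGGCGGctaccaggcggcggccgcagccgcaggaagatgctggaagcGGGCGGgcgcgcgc
Rab7: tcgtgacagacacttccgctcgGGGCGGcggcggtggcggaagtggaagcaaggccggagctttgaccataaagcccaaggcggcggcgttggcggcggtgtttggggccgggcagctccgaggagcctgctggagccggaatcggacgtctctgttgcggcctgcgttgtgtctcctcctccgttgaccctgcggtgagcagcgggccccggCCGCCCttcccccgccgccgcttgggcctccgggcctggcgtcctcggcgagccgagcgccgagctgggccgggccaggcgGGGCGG

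The Rab39 window and the Rab7 window shown held 27 and 38 CpG dinucleotides, 6 and 3 GC boxes and GC contents of 70.7% and 73.7%. The other Rab7 window held 18 CpG dinucleotides, 1 GC box and 61.0% GC. The Rab32 and Rab19 windows held 10 and 9 CpG dinucleotides, 57.3% and 55.7% GC and no GC box. Over the whole family, RefSeq windows were matched for 48 of the 58 genes, 60 windows in all. The Rab windows had a median of 19.5 CpG dinucleotides (3 to 45) against 7 over all 32851 windows, and 61.2% GC against 52.7%. A GC box stood in 41 of the 60 Rab windows (68.3%) and in 35.7% of all windows of the same length. GAGGAAGT stood in the windows of Rab32 and Rab2b (3.33% of Rab windows, 3.20% of all), and Rab2b had a difference of -0.38. The E-box CACGTG, which reads the same on both strands, stood in 6 Rab windows (10.0%), of Rab5a, Rab20, Rab21, Rab23, Rab24 and Rab27a, against 7.15% of all windows. Such matches describe letters in a window and were not tied to any factor.

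Rab32 was the only Rab gene past 2-fold under every alternative processing. Rab32 directs cargo to melanosomes and other lysosome-related organelles and acts in macrophages at vacuoles that hold bacteria. Its single probe (chromosome 10, 10265134 to 10265193, minus strand, mm9) gave 792 in wild-type against 3110 in ob/ob cells. The difference was 1.44 with a scanner error SD of 0.20, a 2.71-fold higher level, and it stayed between 1.16 and 1.55 under all alternatives. Its closest relative Rab38, which shares this role, gave 2.95 in wild-type cells, not well above background, and 13.9 in ob/ob cells. That signal is too near the detection limit for a lower bound on the fold, and a second Rab38 probe, shifted by a part of its length, was above background on neither array (3.41 and 3.58). The GEF of both, the complex of Hps1 and Hps4, lay within 2-fold, with differences of -0.19 for Hps1 and -0.24 for Hps4.

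Among the genes measured on both arrays Rab39 had the largest difference, although under normexp with quantile normalization Rab32 exceeded it (1.32 against 0.75). Rab39 is a Rab of late endosomes and phagosomes with a part in acidification and autophagy. Its signal was 16.2 on the wild-type array, close to the lowest signal well above background there (12.3), and 149 on the ob/ob array. The difference was 2.67 (scanner error SD 0.31), a 6.37-fold higher level, but it was -0.23 under normexp with the 75th percentile and 0.75 under normexp with quantile normalization. The probe lies on chromosome 9 at 53492468 to 53492527 (minus strand, mm9). It shares a run of 21 bases with the opposite strand of the start window of Gm51872, and the effect of this run on the signal was not tested. The paralogue Rab39b was above background on neither array, with signals of 2.87 and 4.43.

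**Figure D2:**
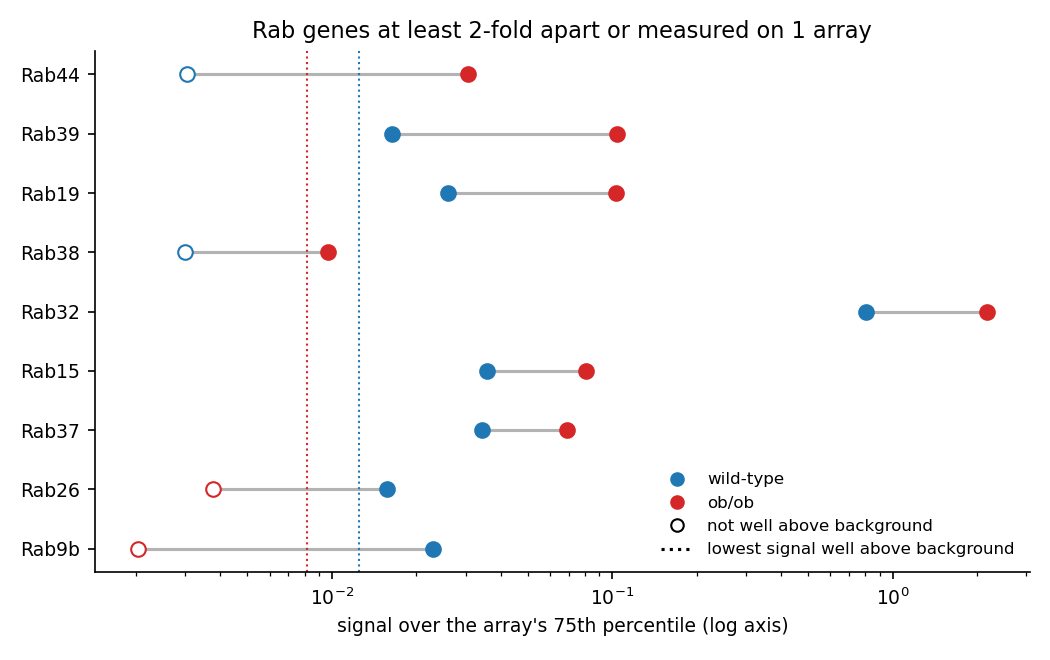
Signal of each Rab gene that was 2-fold apart or measured on 1 array only, divided by the 75th percentile of its array (horizontal log axis), in wild-type (blue) and ob/ob (red) LSEC, 1 array each. Open circles were not well above background and dotted lines mark the lowest signal well above background (12.3 wild-type, 11.7 ob/ob, before scaling). Rab32 alone lies near the 75th percentile, and Rab39, Rab19, Rab15 and Rab37 lie near the detection limit in wild-type cells. Normexp with the 75th percentile turned their sign and put 21.1% of all genes at least 2-fold lower.

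The other 5 late endosomal, lysosomal and autophagy members measured on both arrays lay between -0.45 and 0.17. Rab7, which drives late endosomes to lysosomes, had signals of 3382 and 4130 and a difference of -0.24. Rab9, which returns mannose 6-phosphate receptors from late endosomes to the Golgi, gave 4084 and 5770, and its 3 probes ranged from -0.28 to -0.02. Rab24, linked to autophagosomes, gave 4955 and 8040 (0.17), and Rab29, named Rab7l1 in the files, gave 2062 and 2600 (-0.20). Rab12, which sends transferrin receptor to lysosomes, lay at -0.45, the lowest of the 6 measured on both arrays, from signals of 14321 and 15200. The group median was -0.12 over 6 of 8 members measured on both arrays. Rab9b was measured in wild-type cells only, with signals of 22.8 and 2.90, at least 2.81-fold higher there (probe on chromosome X, 133392760 to 133392819, minus strand, mm9). Its level in wild-type cells was itself near the detection limit.

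Among the early endosomal Rabs, none of 7 reached 2-fold. Rab5a, the organiser of early endosome fusion, was spotted 10 times. Its spots gave signals of 5416 to 5987 for wild-type and 6750 to 7450 for ob/ob before scaling. After scaling the difference was -0.21, with an SD of 0.03 over the spots and a range of -0.25 to -0.13, and a second Rab5a probe gave -0.45. The other isoforms, Rab5b and Rab5c, gave -0.34 (signals 6722 and 7700) and -0.10 (signals 10993 and 14800). Both isoforms and Rab5a thus lay within 0.5 of zero, and 3 Rab5b probes measured on both arrays ranged from -0.42 to 0.03. Rab21, which follows integrins into endosomes, gave 488 and 577 (-0.29). Rab22a and Rab31, relatives of Rab5 at early endosomes and between Golgi and endosomes, gave 1533 and 1770 (-0.32) and 2611 and 3360 (-0.17). Rab20, a Rab of endosomes and maturing phagosomes, gave 2693 and 4100 and was the only positive member of the group at 0.07. The group median was -0.21.

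The recycling Rabs held 1 higher member among 7 measured on both arrays. Rab4a and Rab4b, of fast recycling, had signals of 1304 and 1410 (-0.42) and of 637 and 956 (0.05). Rab11a and Rab11b, of slow recycling through the perinuclear compartment, had signals of 5882 and 8890 (0.06) and of 9518 and 12700 (-0.12). Within each of these pairs the members differed by less than 0.5. Rab14, between the Golgi and endosomes, gave 12092 and 17100 (-0.03), and Rab35, which recycles cargo to the plasma membrane, gave 18307 and 18900 (-0.49). Rab15, an inhibitory Rab of early and recycling endosomes, had signals of 35.5 and 115, a difference of 1.16 with a scanner error SD of 0.24 (2.24-fold higher), and -0.72 under normexp with the 75th percentile. The probe is at 77898991 to 77899050 of chromosome 12 (mm9), and a second Rab15 probe was above background on neither array (2.62 and 5.72). Rab17 and Rab25, known from epithelial cells, were above background on neither array, with signals of 6.96 and 3.83 for Rab17 and of 2.64 and 8.20 for Rab25. The group median was -0.03.

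The Rabs of secretory granules and exocytosis had an SD of 0.52 over 11 members, against 0.64 over all genes. Their median of 0.09 turned to -0.19 with scaling on the array median and to -0.54 under normexp with the 75th percentile. Rab8a and Rab8b carry cargo from the Golgi to the plasma membrane. Rab8a was at -0.08 (1581 and 2170). Rab8b was the lowest of the Rab genes measured on both arrays at -0.59 (21577 and 20800), with -0.70 on its second probe (1109 and 986). After subtraction of the running median of genes of like level, Rab8a lay at 0.0002 and Rab8b at -0.29. Rab10, their relative, gave -0.37 (4192 and 4700), and Rab13, of cell junctions, gave 0.34 (189 and 346). Of the granule Rabs, Rab3a, of regulated secretion, gave 51.8 and 103 (0.46). Rab3d, of secretory and Weibel-Palade granules, gave 79.5 and 170 (0.56). Rab3b gave 53.5 and 54.1 (-0.52). Rab27a, which docks granules, lay at 0.09 (65.8 and 101), and its relative Rab27b at 0.67 (14.8 and 34.1). All of these 5 were within 2-fold, but Rab27a, Rab27b and Rab3b were past 2-fold lower under normexp with the 75th percentile (-1.03, -1.43 and -1.44). So were 21.1% of all genes under that setting. Rab27b was the nearest gene below the 2-fold threshold. Rab37, of mast cell and other granules, was the nearest above it, with signals of 33.8 and 98.5 and a difference of 1.01 (scanner error SD 0.24, 2.01-fold higher) that became -0.78 under normexp with the 75th percentile. A second Rab37 probe that overlaps the first in 55 of 60 bases gave 34.7 and 91.4, a difference of 0.86, and so fell below the threshold. Rab26, of secretory granules, was measured in wild-type cells only, with 15.6 against 5.40, at least 1.93-fold higher there.

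Rab3c, known from neurons and secretory cells, was high by signal on some of its probes only. A pair of its probes that overlap in 54 of 60 bases gave 4650 and 5920 (-0.18) and 3175 and 4270 (-0.11). The third Rab3c probe was above background on neither array, at 2.65 and 2.43. Both bright probes hold the run printed next, which is shown because a probe for Bfar also holds it on the same strand.
Rab3c: tctacagagtgagttcta
The run extends to 21 bases that also stand in the start window of L3mbtl2. Among the 82 Rab probes, 5 probes of 4 genes (Rab3c, Rab27b, Rab33b and Rab39) share a run of at least 18 bases with a probe or a start window of another gene. The share of such probes over the whole array was not computed. The part of these runs in the signals was not tested.

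The Rabs of the endoplasmic reticulum and Golgi lay close together, with 12 of 13 measured on both arrays, none at 2-fold, a median of -0.25 and an SD of 0.18. Rab1a and Rab1b, which act between the endoplasmic reticulum and the Golgi, gave 24623 and 31400 (-0.18) and 4750 and 5860 (-0.23). Rab2a and Rab2b, of the same step, gave 5132 and 6140 (-0.27) and 2431 and 2700 (-0.38). In both pairs the paralogues lay within 0.2 of each other. Rab6a, of transport from and within the Golgi, gave 15130 and 17200 (-0.35), and Rab6b, the form known from neurons, gave 1947 and 1940 (-0.54), the lowest of the group. Rab18, of lipid droplets and the endoplasmic reticulum, gave 9504 and 11900 (-0.21). Rab43 gave 13893 and 15300 (-0.39), with -0.09 on its second probe, and Rab34 gave 3105 and 3480 (-0.37). Rab33a, Rab33b and Rab30, of the Golgi, lay at 0.15, -0.17 and -0.04, and Rab36 was above background on neither array (2.72 and 2.55). Of the 12 genes, 2 lay above the median of all genes, and after subtraction of the running median of genes of like level the group median was -0.08.

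Of the 5 members outside these groups that were measured on both arrays, Rab19 had the largest difference. Rab19, a less studied Rab linked to the Golgi and to cilia, had signals of 25.6 and 147, a difference of 1.99 (scanner error SD 0.26, 3.97-fold higher), against -0.38 under normexp with the 75th percentile and 0.60 under normexp with quantile normalization. The probe is at 39340244 to 39340303 of chromosome 6 (plus strand, mm9). Rab44, a large Rab known from granulocytes, mast cells and osteoclasts, gave 3.02 in wild-type cells, not well above background, and 43.9 in ob/ob cells, at least 2.46-fold higher there (chromosome 17, 29285831 to 29285890, plus strand, mm9). Rab28, of cilia, gave 715 and 1170 (0.18), and Rab23, an antagonist of Hedgehog signalling, gave 247 and 346 (-0.05). Rab42 gave 21.7 and 33.5 (0.09). Rab40c, which forms ubiquitin ligases through its SOCS box, gave 5953 and 5980 (-0.53), and its relative Rab40b was above background on neither array (2.94 and 5.89).

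The name rule missed a gene that RefSeq lists as a Rab. Rab7b, a Rab of late endosomes and the Golgi in myeloid cells, is called 5430435G22Rik in the files, and it was found through its accession. Its signals were 642 and 1600, a difference of 0.79 (scanner error SD 0.20), which is not past 2-fold. Its namesake Rab7 lay at -0.24.

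**Figure D3:**
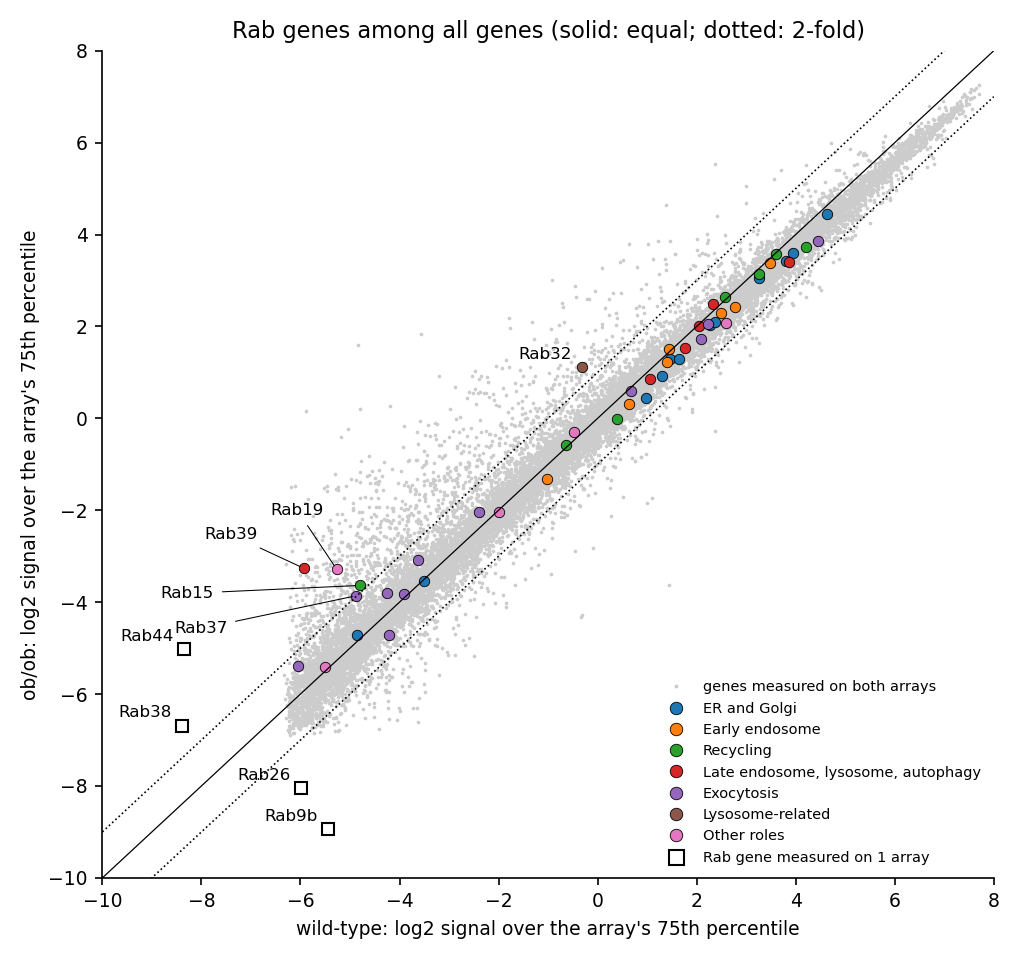
Log2 signal over the array's 75th percentile in wild-type (horizontal axis) and ob/ob LSEC (vertical axis), 1 array each, for all 18134 genes measured on both arrays (grey) and the Rab genes (coloured by role; open squares for those measured on 1 array). Most Rab genes follow the grey band, Rab32 stands above it near the 75th percentile, and Rab39, Rab19, Rab15 and Rab37 lie above it at low level. Normexp with the 75th percentile turned the sign of these last 4 and put 21.1% of all genes at least 2-fold lower.

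The genes that load, switch and read Rabs were compared in the same way. Of 144 such genes with a probe, both arrays measured 131, of which 2 were at least 2-fold higher (1.53%) and 2 lower (1.53%), against 5.82% and 2.29% of all genes. Their median was -0.21 (order-statistic 95% interval -0.27 to -0.17, with genes taken as independent). After subtraction of the running median of genes of like level it was -0.09. The machinery of prenylation and extraction lay within 2-fold for 7 of 7 genes, with a median of -0.17. Gdi2, a GDP dissociation inhibitor, gave 29668 and 32300 (-0.41). Rabac1, a prenylated Rab acceptor, gave 54281 and 57900 (-0.44). The escort proteins Chm and Chml lay at -0.36 and -0.17, and the transferase subunits Rabggta and Rabggtb at 0.01 and 0.12.

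Of 37 exchange factors, all measured on both arrays, 2 were higher and none lower, with a median of -0.23. Dennd1c, a DENN-domain GEF of Rab35 and Rab13, had signals of 42.3 and 238, a difference of 1.96, against -0.14 under normexp with the 75th percentile. Rin2, a GEF of Rab5, had signals of 422 and 1450, a difference of 1.25 that stayed positive under all alternatives, from 0.89 to 1.36. Rab5a, Rab5b and Rab5c themselves lay at -0.21, -0.34 and -0.10, and Rab35 at -0.49. Dennd4a, a GEF of Rab10, gave 101145 and 125000 (-0.23), and Rin3, a relative of Rin2, gave 172 and 135 (-0.88).

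Of 36 measured genes on the list of GAPs and TBC-domain proteins, none was higher and 2 were lower, with a median of -0.22. Rabgap1, a TBC-domain GAP, gave 3685 and 1650, a difference of -1.69, while its second probe gave 51.7 and 73.5, a difference of -0.03, so its probes disagree. Tbc1d23, a TBC-domain protein that tethers endosome-derived vesicles at the Golgi, gave 4810 and 3440, a difference of -1.02 that lay between -1.30 and -0.85 over the alternatives. Tbc1d22a, a TBC-domain protein, gave 25135 and 24100 (-0.59).

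Effectors were the largest list, and none of 42 measured on both arrays reached 2-fold either way. Their median was -0.20, and they ranged from -0.90 for Myo5a, the myosin that Rab27a and Rab11 recruit (1805 and 1400), to 0.70 for Rab11fip4, a Rab11 effector (17.2 and 40.6). Eea1 and Rabep1, tethers that Rab5 recruits, lay at -0.42 and -0.56. Rabep2, a relative of Rabep1, gave 10908 and 13100 (-0.27). Of 53 effectors with a probe, 2 were above background only in ob/ob cells, a pattern of 6.82% of all genes. They were Mlph, at 4.94 and 19.0, and Bicd1, at 4.08 and 45.2. The ob/ob signal of Mlph was itself near the detection limit. Lrrk2, the kinase that phosphorylates Rab8, Rab10, Rab12 and Rab29, gave 4716 and 7280 (0.09), and Ppm1h, a phosphatase that reverses this, gave 1621 and 1400 (-0.74). Of 6 measured Rab-like genes none reached 2-fold, and Rabl6 gave 15319 and 15400 (-0.53).

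Markers of other cell types differed between the arrays, and these values stand beside every higher Rab gene. Of 14 macrophage markers, 10 were higher and none lower, with a median of 1.41 and a summed scaled signal (in units of the array's 75th percentile) of 62.5 for wild-type against 157 for ob/ob LSEC; the count was 10 of 14 under normexp with the 75th percentile too. Marco and Cd5l, a scavenger receptor and a secreted protein of Kupffer cells, gave 25777 and 90900 (1.29) and 18181 and 65000 (1.31). Both were thus well above background in wild-type cells too. Of 12 hepatocyte markers, 10 were higher and none lower (median 2.58, sums 7.79 and 46.1), while normexp with the 75th percentile gave 7 higher and 2 lower (median 1.30). Serpina1a gave 2908 and 17000, and Trf 2315 and 20900. Of 10 stellate cell and fibroblast markers, 8 were measured on both arrays and those 8 were higher (median 2.05, sums 8.40 and 35.0), with 7908 and 47500 for Dcn and 140 and 613 for Pdgfrb, but 1 of the 8 was under normexp with the 75th percentile (median 0.47). Of 8 cholangiocyte markers, 3 were higher (sums over the 8 of 0.55 and 5.56), with 291 and 5580 for Spp1 and 144 and 1460 for Krt18. The other 5 were above background only in ob/ob cells, a pattern of 6.82% of all genes. The differences of these 5 ran from 0.08 for Epcam (14.7 and 22.4) to 2.49 for Cdh1 (7.89 and 64.0).

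Among lymphoid and granulocyte markers, several were above background only in ob/ob cells. T and NK cell markers summed to 0.63 and 0.81, with 3 of 8 measured on both arrays, none at 2-fold, and 3 on the ob/ob array only. Nkg7 gave 336 and 426 and Il7r 175 and 252, whereas Cd3d gave 2.80 and 115 and Gzmb 4.38 and 157. Neutrophil markers summed to 43.8 and 37.0, nearly all from Csf3r (42743 and 52200, -0.24), with Mpo and Elane lower at -1.32 and -1.01 and 3 of 7, S100a8, S100a9 and Mmp8 (2.61 and 166), above background only in ob/ob cells. Of 5 B cell markers, 1 was measured on both arrays (Cd79b, 33.4 and 64.2; Cd79a was on neither, 6.52 and 11.9), and of 5 erythroid markers 1 was (Car2, 114 and 356), while Hba-a1 gave 13.7 and 25.5. The LSEC markers summed to 95.2 and 76.7 (median -0.24) and the endothelial ones to 298 and 210 (median 0.01), with none at 2-fold, and Egfl7 and Cdh5 gave 185007 and 179000 and 52171 and 55500. The part of these other cells in the values of Rab32, Rab39, Rab19, Rab15, Rab37, Rab38 and Rab44 was not tested, since each RNA came from the whole preparation.

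**Figure D4:**
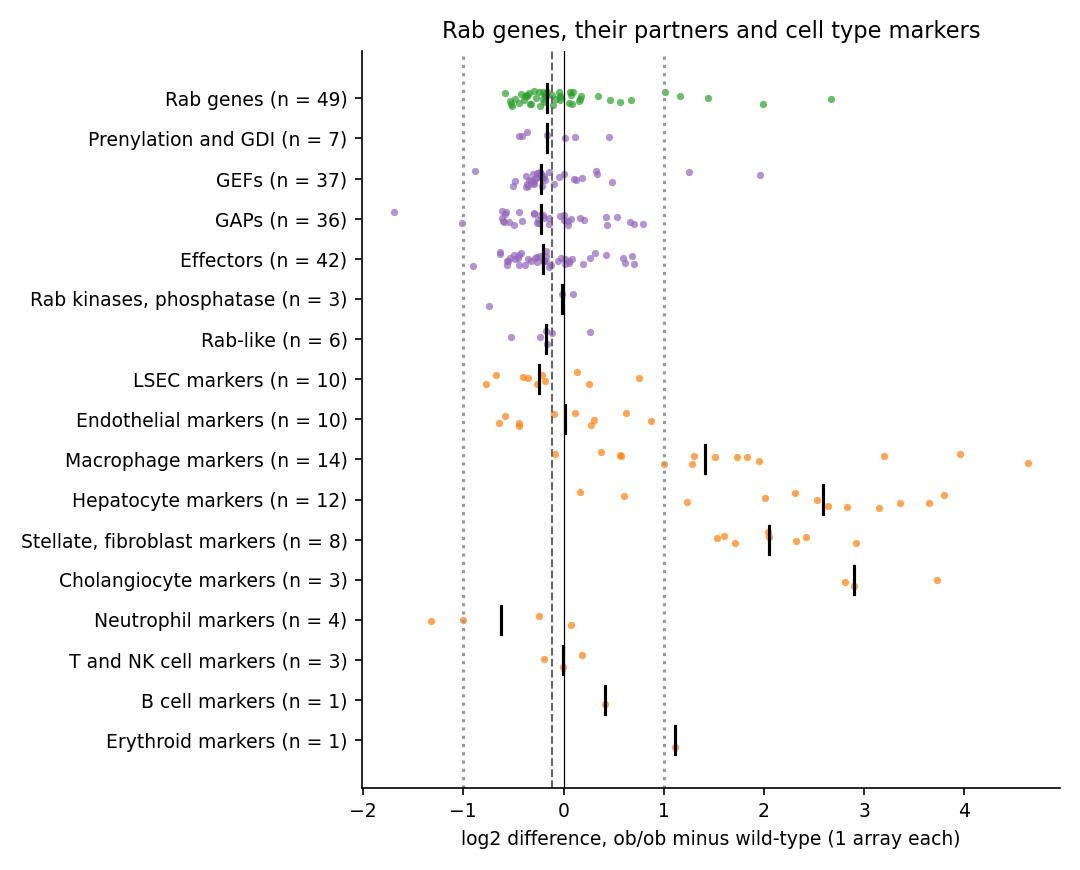
Log2 difference between ob/ob and wild-type LSEC (horizontal axis, 1 array each) for Rab genes (green), genes of the Rab cycle (purple) and cell type markers (orange) measured on both arrays. Each point is a gene, bars are list medians, the dashed line is the median of all genes (-0.12) and dotted lines mark 2-fold. The Rab and partner medians lie between -0.23 and -0.01 and the macrophage median at 1.41; with scaling on the array median every point moves by -0.28.

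Technical spread was measured between repeat spots and between probes. Neither covers the choice of background correction: Rab39 lay at 2.67 in the main setting and at -0.23 under normexp with the 75th percentile. Over 259 probes spotted 10 times, single-spot differences had a median SD of 0.05. Between probes of the same gene the SD was 0.33 over 3694 genes and 0.14 over the 14 Rab genes with more than 1 probe measured on both arrays. These 14 include Rab37 and Rab3c, whose measured probes overlap in 55 and 54 of 60 bases, and probes not measured on both arrays are left out. Local background under the Rab spots was 57 to 69 for wild-type and 51 to 70 for ob/ob, around the array medians of 63 and 60, and no Rab spot was flagged on either array. None of these measures contains the difference between mice or between preparations.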

How the data were processed

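Total RNA of LSEC from 1 wild-type and 1 ob/ob mouse was measured on 1-colour Agilent mouse arrays, whose probes carry mm9 coordinates per the file headers; whether a probe lies in an exon or UTR was not analysed here. The authors deposited spot intensity on a linear scale from Agilent Feature Extraction 11.0.1.1 (per the submitters' processing notes and the file headers), with background subtracted and no scaling between arrays. A second deposited table by the authors gives, as a ratio, 24868 features with column medians of 0.614 (wild-type) and 0.648 (ob/ob). Each value equals the processed intensity over the 75th percentile of its array, with a range of 0.978% and 1.42% of the median over features, so its scale, direction and lack of centring were settled from the files.

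Each processed intensity was divided by the 75th percentile of the non-control spots of its array and put on the log2 scale. Flagged spots were dropped and spots of a probe averaged. The probe with the highest mean stood for its gene. A probe was measured if more than 50% of the spots kept were well above background. Of non-control spots, 25224 (58.6%, wild-type) and 27873 (64.8%, ob/ob) were well above background, and no non-control spot was saturated. A fold for a gene measured on 1 array is a lower bound against the higher of the lowest signal well above background (12.3 wild-type, 11.7 ob/ob) and the dim probe itself, after scaling.

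Accessions in a RefSeq table gave current names (GRCm38.p6, names only). It matched 26055 probes by their main accession and 105 by another of 39429. Named are all Rab genes, since the name rule closes the set, of the partner lists the genes at 2-fold and the brightest of each list on the wild-type array, and of each marker list the 2 brightest there. Hps1, Hps4, Chm, Chml, Rabggta, Rabggtb, Gdi2, Rin3, Myo5a, Rab11fip4, Eea1, Rabep1, Bicd1, Mlph, Ppm1h, Epcam, Cdh1, Cd3d, Gzmb, Mpo, Mmp8, S100a8 and S100a9 were chosen after their values were seen. The members and lists were chosen with earlier results of these data known. A single array a group allows no test. Scaling, averaging and calling at 2-fold were tested on simulated data in which both arrays had the wild-type detection calls. The detection filter between arrays, the lower bounds and normexp were not tested in this way. Python 3.11.15, pandas 2.3.3, R 4.3.3 and limma 3.58.1 (normexp with an offset of 50, quantile normalization) were used. Other scalings, background corrections, filters and probe rules were tried as alternatives.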

Additional observations from a re-analysis of the deposited data

How the results depend on the processing

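No paired analysis was possible because each group holds 1 array, and for the same reason no array could be left out. Rab32 stayed above 2-fold under every alternative run (1.16 to 1.55). Of 49 Rab genes, 24 kept their sign in all 10 settings with the filter on dim probes (23 negative, and Rab32), and 39 stayed within 2-fold in all of them. The same counts were not made over all genes. The median of all genes was itself negative in every setting, from -0.40 with scaling on the array median to -0.0004 after subtraction of the running median. Scaling on the array median gave 3 higher Rab genes, a Rab median of -0.45, and 1 higher and 5 lower partner genes; it moves every difference by -0.28, and the split of all genes becomes 766 higher and 976 lower, from 1055 and 415. Normexp with the 75th percentile, whose offset of 50 exceeds the wild-type signals of Rab15, Rab19, Rab37 and Rab39, gave 1 higher and 5 lower Rab genes (Rab27a, Rab27b, Rab33a, Rab3b and Rab42), a Rab median of -0.24, 0 higher and 10 lower partner genes, and 369 higher and 3818 lower genes in all. It turned Rab15 to -0.72, Rab19 to -0.38, Rab37 to -0.78 and Rab39 to -0.23. Normexp with quantile normalization gave 1 higher Rab gene (2.04%, against 2.71% of all genes), and 0 higher and 1 lower partner gene (against 0.706% of all genes lower). Quantile normalization alone gave 3 higher Rab genes (6.12%, against 5.04% of all genes). Without the filter on dim probes 8 of 58 Rab genes were higher (13.8%, against 8.40% of all genes) and 3 lower (against 5.13% of all genes). Under the same setting 4 partner genes were higher. Subtraction of the running median of genes of like level gave a Rab median of -0.0016 and 1 lower partner gene, against 1.83% of all genes. The 75th percentile over probes measured on both arrays and the mean over probes also gave 1 lower partner gene each. Those settings put 1.62% and 2.15% of all genes at least 2-fold lower. Beyond the steps named, the cause of these moves was not tested. Of the Rab genes measured on both arrays, those near the detection limit carry the largest scanner errors.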
